A study of Medicago truncatula with 48 samples.

Results

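Seed coats of *Medicago truncatula* A17, a model legume, were compared at one age, 17 days after pollination, between heat stress and standard temperature. The heat stress seed coats (26 °C by day, stage S2) and the standard seed coats (20 °C by day, stage S1) were chosen by tissue, temperature and age as the labels give them, which takes 4 of the 48 RNA-seq samples of the series, 2 in each group. S1 is the stage before the seed acquires desiccation tolerance and S2 the stage after it, and seeds develop faster under heat, so that at 17 days the 2 groups differ in temperature and in stage at once. From these 4 libraries alone the effects of temperature and of stage cannot be told apart. The 4 other seed coat libraries are those of 20 °C at S2, sampled at 26 days, and of 26 °C at S1, sampled at 14 days, again with 2 samples each. All plants were grown under standard conditions until flowering, and seeds were then matured at 26 °C or 20 °C. The labels give nights of 14 °C at 26 °C and of 19 °C at 20 °C, whereas the study's methods give other night temperatures. Each replicate pooled the tissue dissected from at least 50 seeds, so single seeds are not resolved. Endosperm (2 samples per group) and embryo (3 samples per group) of 17 days were used for comparison.

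The seed coat is maternal tissue that surrounds the embryo and the endosperm, both of which are products of fertilization. During seed filling it unloads sugars and amino acids to the embryo, and in legumes it also stores flavonoids such as proanthocyanidins, thickens its cell walls and later dies as the seed dries. None of the 44473 transcript identifiers of the table matched the gene table provided, so transcripts are given without gene names or functions, and 4 identifiers chosen by rule stand as examples. Lists of seed coat genes such as those of the flavonoid pathway therefore could not be checked, and the tissue was checked only by likeness between libraries. Every seed coat library had its own replicate as nearest neighbour among all libraries (Spearman's rho across transcripts 0.982 to 0.993), while the nearest library of another tissue reached rho of 0.756 to 0.782.

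The heat stress S2 libraries held 21549778 and 32763937 estimated counts, against 37382785 and 53776178 in the standard S1 libraries. At least 1 count was found for 28624 and 29576 transcripts in heat stress S2, and for 31863 and 31504 in standard S1. The replicates of heat stress S2 were closer to each other (median SD 0.08 on the log2 CPM scale, n = 2) than those of standard S1 (median SD 0.17, n = 2). More than 2-fold between replicates were 4.36% of transcripts in heat stress S2 and 9.82% in standard S1. Replicate 1 of standard S1 also held 11.4% of its TPM (counts corrected for transcript length and for the library's total) on a stretch of 14 neighbouring identifiers on chromosome 5, against 1.68% in replicate 2 and 1.22% and 1.83% in the heat stress S2 libraries. By counts the stretch held only 0.350% and 0.0528% in standard S1, against 0.0450% and 0.0636% in heat stress S2. The effective lengths used for TPM were only 10.4 and 11.6 bases for its members MtrunA17_Chr5g0422101 and MtrunA17_Chr5g0422311, which inflates their TPM. The 3 members of the stretch with a mean TPM of at least 1000 had log2 fold changes of -1.61 to -2.07 at 17 days and were not called (adjusted p = 0.050 to 0.16, edgeR). No label says that replicates came from separate plants, so p-values measure the spread between these samples only.

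Of 25439 transcripts tested with the quasi-likelihood test of edgeR, 10386 differed between heat stress S2 and standard S1 at 17 days with an adjusted p below 0.01 (40.8%). In heat stress S2, 4794 were higher (18.8%) and 5592 were lower (22.0%). The median fall was larger than the median rise. The median log2 fold change was 1.00 for the transcripts that rose and -1.58 for those that fell, and -0.03 over all transcripts tested. At least 2-fold higher were 2408 transcripts and at least 2-fold lower 3872, and past 32-fold (a log2 change of 5) were 181 higher and 467 lower. With library size as the only scaling the median of all transcripts shifted to -0.13, and 38.4% of the calls were then higher, compared with 46.2% with TMM. The number of calls was 5566 without replicate 1 and 5369 without replicate 2 of heat stress S2.

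The transcripts called at 17 days carried a large part of all counts, as the plot of their shares by library shows. The 4794 higher ones took 45.2% and 45.5% of the counts in heat stress S2, against 16.6% and 18.4% in standard S1. The 5592 lower ones took 13.8% and 13.6% in heat stress S2, against 40.2% and 40.1% in standard S1. Those 4 libraries chose the transcripts, so these shares are a description. The 4 other seed coat libraries were not compared here but entered the same fit, with its filter, scaling and estimate of the spread. There the higher transcripts took 43.1% and 41.8% of counts at 20 °C S2 and 36.5% and 34.2% at 26 °C S1. The lower ones took 14.8% and 14.8% at 20 °C S2 and 21.8% and 21.1% at 26 °C S1. All 4 of these libraries lay nearer to heat stress S2 than to standard S1 on both measures, including those of S1 under heat.

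**Figure D1:**
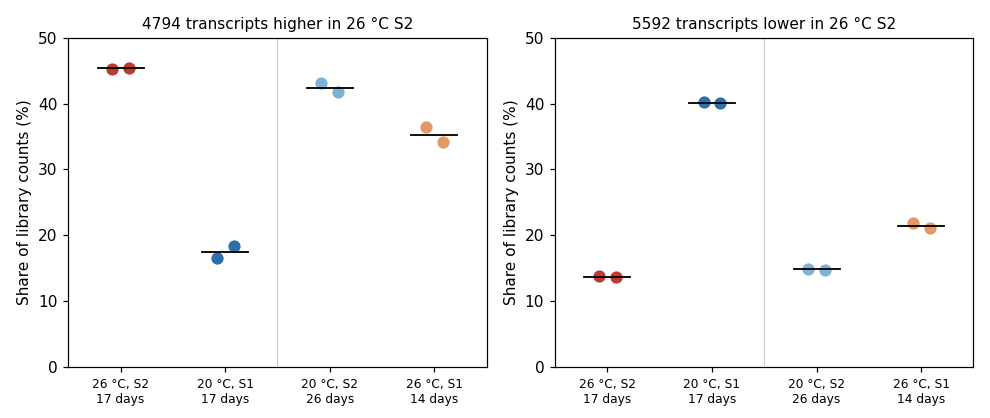
Share of each library's counts (%, from 0) on the transcripts called higher (left) and lower (right) in heat stress S2 at 17 days. Points are single libraries, bars are means of 2, and the grey line divides the 4 libraries of 17 days from the 4 others. Standard S1 stands apart from the other 3 groups in both panels, at 16.6% and 18.4% on the left and 40.2% and 40.1% on the right.

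Heat stress S2 libraries were dominated by fewer transcripts. By TPM, 69 and 61 transcripts made up 50% of the heat stress S2 libraries, against 233 and 282 in standard S1. The same count was 106 and 102 at 20 °C S2 and 78 and 86 at 26 °C S1. The 10 most abundant transcripts of each library of 17 days formed a union of 19, of which 9 rose in heat stress S2, 2 fell and 8 were not called. Over all transcripts tested, 18.8% rose and 22.0% fell. The libraries compared also chose these 19, so their directions are a description. In the most abundant of 5 equal bins of transcripts 22.2% rose and 29.7% fell.

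Several of these abundant transcripts have neighbouring identifiers. A stretch of 17 consecutive identifiers on chromosome 7, chosen after its values were seen, took 15.8% and 16.8% of TPM in heat stress S2, against 4.95% and 7.71% in standard S1. It took 12.8% and 12.6% at 20 °C S2 and 17.9% and 15.4% at 26 °C S1. Of its 15 members tested, 9 rose, 1 fell and 5 were not called, beside 18.8% higher and 22.0% lower over all transcripts. Among the 8 with a mean TPM of at least 1000, which are 542 to 662 bases long, 5 rose by 3.37 to 8.20 on the log2 scale and 1 fell by 3.68. The stretch thus holds abundant transcripts that went in opposite directions. Whether these are near-identical copies that share reads was not tested, so single values within the stretch are uncertain.

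The transcript that fell in this stretch, MtrunA17_Chr7g0244811 (626 bases), had the highest mean TPM at 17 days of its class, the transcripts at least 2-fold lower in heat stress S2 and lower again at 20 °C S2 than at 26 °C S1. It had 1345 and 1398 normalised CPM in heat stress S2, against 14837 and 20210 in standard S1. The level was 12.8-fold lower in heat stress S2 (log2 fold change -3.68 ± 0.27 SE, adjusted p = 3.4e-05, edgeR). At 20 °C S2 it had 614 and 590 CPM, against 20125 and 14603 CPM at 26 °C S1 (log2 fold change -4.85 ± 0.28 SE, adjusted p = 6.9e-05, edgeR). Both S1 groups were therefore high and both S2 groups low at either temperature.

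MtrunA17_Chr1g0165761 (590 bases) had the highest mean TPM at 17 days of the transcripts called at least 2-fold higher in heat stress S2 and higher again at 20 °C S2 than at 26 °C S1. It had 12256 and 13888 normalised CPM in heat stress S2, against 554 and 476 in standard S1. The level was 25.4-fold higher in heat stress S2 (log2 fold change 4.67 ± 0.22 SE, adjusted p = 5.4e-06, edgeR). At 20 °C S2 it had 10392 and 9936 CPM, against 5323 and 4606 CPM at 26 °C S1 (log2 fold change 1.03 ± 0.19 SE, adjusted p = 0.007, edgeR). Standard S1 was thus the one group with a low level, and the other 3 groups lay within a narrower range. The transcript with the identifier before it, 405 bases long, rose in heat stress S2 by 8.05 ± 0.61 SE on the log2 scale. Together this pair took 6.60% and 7.17% of TPM in heat stress S2, against 0.17% and 0.17% in standard S1.

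MtrunA17_Chr3g0128791 (1482 bases) had the highest mean TPM at 17 days of the transcripts at least 2-fold higher in heat stress S2 but lower at 20 °C S2 than at 26 °C S1. It had 477 and 472 normalised CPM in heat stress S2, against 85.2 and 109 in standard S1 (log2 fold change 2.29 ± 0.22 SE, adjusted p = 0.00012, edgeR). At 20 °C S2 it had 449 and 369 CPM, against 763 and 1115 CPM at 26 °C S1 (log2 fold change -1.20 ± 0.21 SE, adjusted p = 0.006, edgeR). Its level was highest at 26 °C S1 and lowest at standard S1, and the libraries of both S2 groups lay between them.

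MtrunA17_Chr6g0461021 (354 bases) had the highest mean TPM at 17 days of the transcripts at least 2-fold lower in heat stress S2 but higher at 20 °C S2 than at 26 °C S1. It had 52.9 and 51.4 normalised CPM in heat stress S2, against 399 and 341 in standard S1. It was 7.10-fold lower in heat stress S2 (log2 fold change -2.83 ± 0.11 SE, adjusted p = 3.4e-06, edgeR). At 20 °C S2 it had 155 and 157 CPM, against 84.8 and 74.1 CPM at 26 °C S1 (log2 fold change 0.97 ± 0.11 SE, adjusted p = 0.00084, edgeR). At each stage the 26 °C libraries were below the 20 °C libraries, and at each temperature S2 was below S1.

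**Figure D2:**
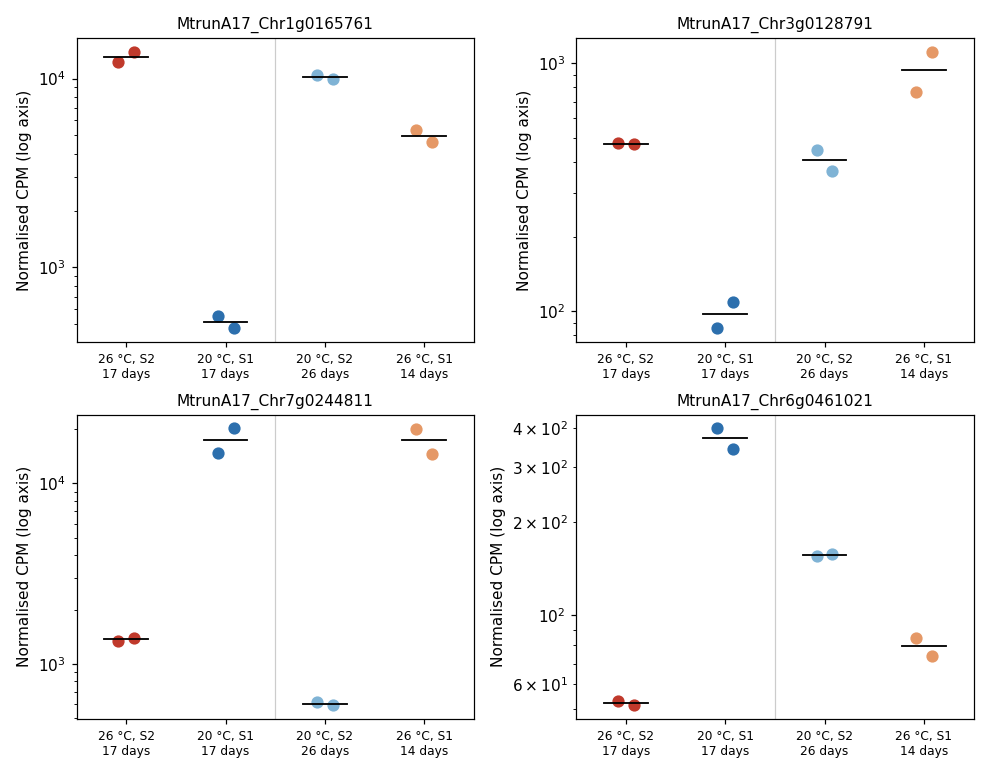
Normalised CPM (log axis, scaled by TMM) of the 4 transcripts in each of the 8 seed coat libraries. Points are libraries, bars are means of 2, and the grey line divides the libraries of 17 days from the others. MtrunA17_Chr7g0244811 is high at S1 and low at S2 under both temperatures, and MtrunA17_Chr1g0165761 is low only in standard S1 among the 4 groups.

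The other 4 seed coat libraries give a second comparison in which stage runs the same way as at 17 days and temperature the opposite way: 20 °C S2 at 26 days over 26 °C S1 at 14 days. It shares no library with the comparison at 17 days. Both came from 1 fit of all 8 seed coat libraries, however, with a shared filter, scaling and estimate of the spread. Calls in the 2 comparisons are therefore not independent. A call with the same sign in both matches the order of the stages, and one with opposite signs that of the temperatures. The sign does not separate the 2, since a transcript of either class can differ with both. MtrunA17_Chr6g0461021, with opposite signs, was also lower at S2 than at S1 at each temperature. Age differs as well in the second comparison. In that second comparison 3362 transcripts were called (13.2%), 1686 higher (6.63%) and 1676 lower (6.59%) at 20 °C S2. That count ran between 1125 and 5313 with any 1 of the 8 seed coat libraries left out, and each of them moved it by more than 1.5 times. Among the transcripts that rose in heat stress S2 at 17 days, 18.0% were called higher at 20 °C S2 and 2.63% lower. Among those that fell, 21.2% were called lower and 5.31% higher.

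In all, 2467 transcripts were called in both comparisons. Of these, 2044 (82.9%) went in the same direction and 423 (17.1%) in opposite directions. The same direction was taken by 861 that rose and 1183 that fell in heat stress S2, and the opposite direction by 126 that rose and 297 that fell. Most calls at 17 days were not called in the second comparison, 3807 of those that rose and 4112 of those that fell. A missing call does not show that a transcript was equal there. By sign alone, 69.9% of the transcripts that rose at 17 days were higher at 20 °C S2 than at 26 °C S1, and 76.7% of those that fell were lower. Over all transcripts tested 47.6% were higher and 52.3% lower. These counts depend on single libraries. Without any 1 of the 6 libraries other than those of standard S1 both counts were lower by more than 1.5 times, down to 703 with the same direction (without replicate 1 of 20 °C S2) and 163 with opposite directions (without replicate 2 of heat stress S2). Without replicate 2 of standard S1, 727 went in opposite directions.

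**Figure D3:**
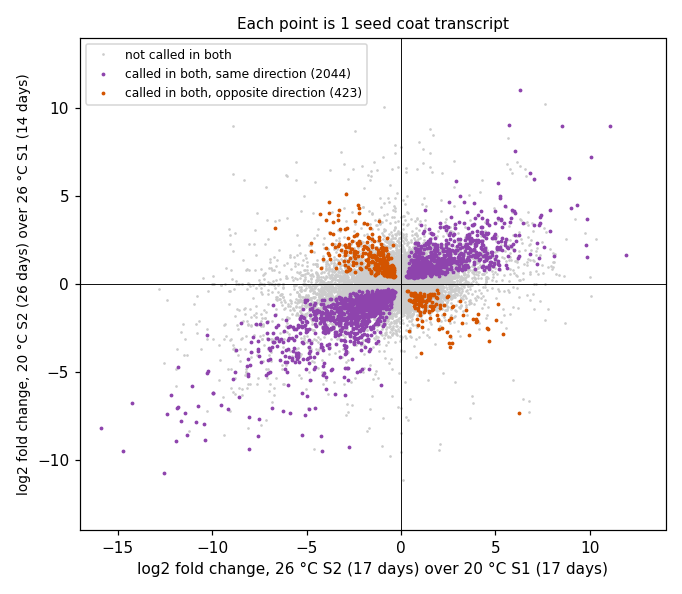
Log2 fold change at 17 days (heat stress S2 over standard S1, horizontal) against that of the 4 other seed coat libraries (20 °C S2 over 26 °C S1, vertical), with 1 point per transcript tested. The 2044 transcripts called in both with the same direction lie in the lower left and upper right, and the 423 with opposite directions in the upper left and lower right.

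The signs of the differences between these 4 groups define the classes, so their median levels are a description. Relative to standard S1, the median log2 level of the 1183 transcripts that fell and kept the same direction was -2.02 in heat stress S2, -2.25 at 20 °C S2 and -0.84 at 26 °C S1. For the 861 that rose and kept the same direction it was 1.64 in heat stress S2, 2.02 at 20 °C S2 and 0.79 at 26 °C S1. The 297 that fell with opposite directions were at -1.21 in heat stress S2, -0.16 at 20 °C S2 and -1.43 at 26 °C S1. The 126 that rose with opposite directions were at 1.42 in heat stress S2, 0.27 at 20 °C S2 and 1.52 at 26 °C S1. The calls with no call in the second comparison had medians of 0.91 in heat stress S2, 0.75 at 20 °C S2 and 0.65 at 26 °C S1 for those that rose, and of -1.44 in heat stress S2, -1.15 at 20 °C S2 and -0.91 at 26 °C S1 for those that fell.

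Some transcripts were at 0 in one group of 17 days and not in the other. At 0 counts in both standard S1 libraries and at 10 or more in both heat stress S2 libraries were 33 transcripts, 28 of them called. Over all transcripts tested 40.8% were called. The libraries compared chose the transcripts of this paragraph, so their calls largely follow from the choice. Of the 33, 22 also had 10 or more counts in both libraries of 20 °C S2, and 7 in both of 26 °C S1. The reverse, 0 in both heat stress S2 libraries and 10 or more in both of standard S1, held for 234 transcripts, of which 195 were tested and 135 were called. Both libraries of 20 °C S2 were also at 0 for 102 of these 234, and both of 26 °C S1 for 35. The heat stress S2 libraries were the shallower ones, and a 0 allows up to 3 counts there by counting error alone.

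Abundant transcripts were called more often. The share called was 22.2% in the lowest of 5 equal bins of mean TPM and 51.9% in the highest, where 22.2% rose and 29.7% fell in heat stress S2. Long transcripts rose more often, with 12.7% higher and 19.0% lower in the shortest bin (up to 999 bases) and 23.9% higher and 19.9% lower in the longest (from 2628 bases). Chromosomes 1 to 8 had 38.2% to 42.8% of their tested transcripts called. With the tested transcripts put in identifier order, untested ones skipped, called neighbours went in the same direction in 62.2% of 4683 pairs. The share was 50.1% of 4208 called pairs set 100 tested transcripts apart. In the same order, the longest unbroken run of calls in one direction was 8 transcripts, on chromosome 3, all higher in heat stress S2. Salmon divides reads between similar transcripts, and the part of this in the likeness of neighbours was not tested.

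Because the tissues were separated by dissection, transcripts abundant in embryo or in endosperm were followed in the seed coat libraries. The lists compare embryo with endosperm only. Transcripts that the seed coat itself expresses were not removed, so the shares do not measure carried-over tissue. The 50 most abundant transcripts that were at least 20-fold higher in embryo than in endosperm at 17 days made up 0.172% and 0.176% of counts in heat stress S2 seed coats, against 1.55% and 0.893% in standard S1 seed coats. The same list took 0.291% and 0.405% at 20 °C S2 and 0.330% and 0.477% at 26 °C S1, and 11.5% to 12.0% in standard S1 embryos. Of 46 members tested in seed coat, 30 were lower in heat stress S2 and 16 were not called, with a median log2 fold change of -2.97, beside 22.0% lower over all transcripts. The list also fell in embryo itself, where it took 2.23% to 2.28% in heat stress S2 and 11.5% to 12.0% in standard S1. The corresponding endosperm list took 0.0810% and 0.0736% in heat stress S2 seed coats, against 0.282% and 0.165% in standard S1 seed coats. Of its 46 members tested in seed coat, 28 fell and 5 rose, with log2 fold changes from -9.35 to 9.83 over the list. This list also fell in endosperm itself, where it took 6.80% and 6.51% in heat stress S2 and 9.94% and 9.38% in standard S1. The seed coat groups of 17 days did not overlap on either list, but neither did they for 79.45% of all single transcripts tested. With 2 against 2 samples an exact permutation p cannot fall below 0.333. None of the 50 embryo transcripts, and 1 of the 50 endosperm transcripts, was at 0 in all 4 libraries of 17 days.

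The shares of both lists, highest in replicate 1 of standard S1, moved with the result, and the part of carried-over tissue in the transcripts that fell was not tested. Fewer cells of a type and less RNA per cell cannot be told apart in such bulk samples. Of the 5592 transcripts that fell, which were chosen with the standard S1 seed coat libraries, 70.1% had a higher TPM in both of those libraries than in every embryo library of standard S1, beside 70.0% of all transcripts tested. Against every endosperm library of standard S1 the share was 70.8%, beside 54.7% of all tested. The number of embryo list members called, all of them lower, was 29 without replicate 1 and 40 without replicate 2 of standard S1, and that of all calls was 9897 and 10808 for the same omissions.

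**Figure D4:**
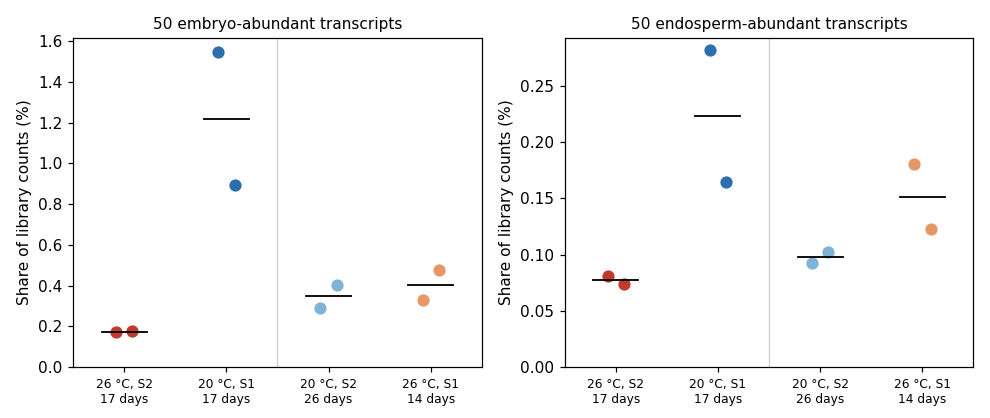
Share of each seed coat library's counts (%, from 0) on 50 embryo-abundant (left) and 50 endosperm-abundant (right) transcripts. Points are libraries and bars are means of 2. Standard S1 is highest in both panels in its mean, and its replicate 1 is the highest library, at 1.55% and 0.282%.

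Transcripts of the organelle genomes were rare in these libraries. Plastid transcripts took 0.00368% and 0.00378% of counts in heat stress S2, against 0.0146% and 0.00704% in standard S1. Of 55 plastid transcripts tested, 6 fell (10.9%) and 49 were not called, beside 22.0% lower over all transcripts. Their median log2 fold change was -1.40, compared with -0.03 over all transcripts. The number of calls changed to 18 without replicate 2 of standard S1, 3 without replicate 1 of standard S1 and 2 without either replicate of heat stress S2. Mitochondrial transcripts took 0.00169% and 0.00186% in heat stress S2, against 0.00714% and 0.00124% in standard S1, so that the groups overlapped. Of 21 mitochondrial transcripts tested, 1 was called (4.76%), beside 40.8% over all transcripts, and it fell.

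The same age was also sampled under both temperatures in endosperm and embryo, which shows how far the seed coat calls were shared. In a fit of all 14 libraries of 17 days, 22.5% of 27776 transcripts rose and 20.8% fell in heat stress S2 endosperm against standard S1, and 19.3% rose and 23.9% fell in embryo. Among the transcripts that rose in seed coat, 34.9% rose and 13.2% fell in endosperm, and 34.1% rose and 14.97% fell in embryo. Among those that fell in seed coat, 18.2% rose and 36.5% fell in endosperm, and 12.7% rose and 46.1% fell in embryo. Over all transcripts tested in both fits, 23.6% rose and 20.7% fell in endosperm, and 20.8% rose and 26.4% fell in embryo. Of the 4716 transcripts that rose in seed coat and were tested in both fits, 864 were called higher in all 3 tissues. Of the 5548 that fell, 1292 were called lower in all 3. In a direction opposite to both other tissues went 221 of the transcripts that rose in seed coat and 354 of those that fell. The matching shares over all transcripts were not counted, so the counts over the 3 tissues are a description.

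**Figure D5:**
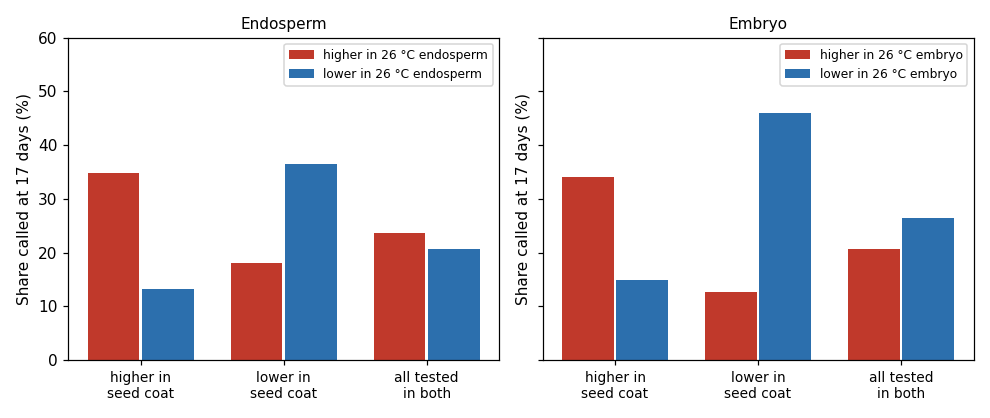
Share (%) of transcripts called higher (red) and lower (blue) in heat stress S2 against standard S1 at 17 days in endosperm and in embryo, for transcripts called higher in seed coat, called lower in seed coat, and all tested in both. Transcripts that fell in seed coat fell more often in embryo (46.1%) than all tested (26.4%).

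The difference between the tissues was tested directly. The log2 fold change of heat stress S2 over standard S1 differed between seed coat and endosperm for 9376 transcripts (33.8%), with 3595 more positive and 5781 more negative in seed coat. It differed between seed coat and embryo for 8818 transcripts (31.7%), with 4173 more positive and 4645 more negative in seed coat. The median difference over all transcripts was -0.18 against endosperm and -0.14 against embryo on the log2 scale, so these splits include a general shift. With library size only, 54.9% of the differences from endosperm and 82.2% of those from embryo were more positive in seed coat, compared with 38.3% and 47.3% with TMM, so no direction holds under both scalings. Of the transcripts that rose in seed coat, 928 had a change more positive than in each of the other tissues by these tests, and of those that fell 1696 had a change more negative than in each, both with TMM. The seed coat libraries that chose these transcripts also enter the tests, which favours larger changes in seed coat. These counts are therefore a description, and the share over all transcripts was not counted.

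The log2 fold change of MtrunA17_Chr1g0165761 was larger in seed coat than in endosperm (difference 3.53 ± 0.48 SE, adjusted p = 6.2e-05) and than in embryo (difference 4.56 ± 0.47 SE, adjusted p = 4.7e-06, edgeR). The change itself was not called in endosperm (1.11 ± 0.34 SE, adjusted p = 0.014) or in embryo (0.08 ± 0.30 SE, adjusted p = 0.88, edgeR). The transcripts named were chosen in part by their change in seed coat, which favours a larger change there. Its TPM was 1138 and 860 in heat stress S2 endosperm, against 769 and 318 in standard S1 endosperm, and between 15.4 and 44.4 in every embryo library of 17 days. MtrunA17_Chr7g0244811 fell in all 3 tissues, with log2 fold changes of -3.58 ± 0.40 SE in endosperm and -4.21 ± 0.37 SE in embryo, and the differences from seed coat were not called (adjusted p = 0.88 against endosperm and 0.49 against embryo, edgeR). In endosperm it had 127 and 91.8 TPM in heat stress S2, against 2040 and 1036 in standard S1, while seed coat had 3174 and 3226 TPM in heat stress S2, against 39330 and 56050 in standard S1. Its level in seed coat was thus above that of endosperm at both temperatures.

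The fall of MtrunA17_Chr6g0461021 was present in every tissue and, with TMM, larger in seed coat. The size of these differences depends on the scaling, and other scalings were not run for single transcripts between tissues. With library size only, the median difference over all transcripts was 0.08 from endosperm and 0.63 from embryo. By mean TPM this transcript went from 3600 to 437 in seed coat, from 5753 to 1007 in endosperm and from 592 to 105 in embryo. Its log2 fold change was -2.28 ± 0.09 SE in endosperm and -1.55 ± 0.07 SE in embryo, and the difference was -0.58 ± 0.12 SE from endosperm (adjusted p = 0.0015) and -1.30 ± 0.11 SE from embryo (adjusted p = 1.0e-06, edgeR). MtrunA17_Chr3g0128791 rose in endosperm as well (1.29 ± 0.29 SE, adjusted p = 0.0022, edgeR) but at a low level, with 4.54 and 4.84 TPM in heat stress S2, against 1.35 and 3.18 in standard S1. Neither difference of MtrunA17_Chr3g0128791 from seed coat was called (adjusted p = 0.045 against endosperm and 0.010 against embryo, edgeR).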

How the data were processed

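RNA-seq reads of pooled, dissected tissue were filtered and quantified by the authors on the A17 reference transcriptome (the fifth genome release) with Salmon, per the labels and methods. They deposited estimated counts per transcript for 48 samples, without normalization or pooling, with transcript lengths and effective lengths. The table holds 1 effective length per transcript, from a library not stated, and it was used to compute TPM in every library. TPM is inflated for very short transcripts.

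Estimated counts were rounded and tested with edgeR 4.0.16 (R 4.3.3, limma 3.58.1): filterByExpr (minimum count 10, total 15), TMM, 1 mean per group, and a quasi-likelihood test with Benjamini-Hochberg adjustment over all transcripts tested. Calls have an adjusted p below 0.01, with no fold minimum, the threshold of the study. All 8 seed coat libraries shared 1 fit, and the 14 libraries of 17 days another for differences between tissues. The study used DESeq2 for seed coat; DESeq2 1.42.0 was an alternative, beside other scalings, filters, thresholds, a replicate block and leaving out libraries. CPM values were scaled by TMM.

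Transcripts named are the first by mean TPM of 4 classes (called in both seed coat comparisons, absolute log2 change at 17 days of at least 1, same or opposite sign). The samples and lists were chosen with earlier results of these data known. The embryo and endosperm lists used TPM + 0.1 and no seed coat library, so expression in seed coat did not exclude a transcript. The tests were checked on simulated counts. Seed coat totals of 21549778 to 53776178 counts set the precision, and floors cover counting error only, since reads carry no molecular identifiers. Reads shared by similar transcripts make their counts uncertain. None of the 44473 identifiers matched a gene name. No genome was used.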

Additional observations from a re-analysis of the deposited data

Results flagged for a closer look

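The response at 17 days (heat stress S2 over standard S1) differed between tissues by a test of the difference itself, in edgeR, for 9376 transcripts between seed coat and endosperm and for 8818 between seed coat and embryo. Of the 4 transcripts named, MtrunA17_Chr1g0165761 had a larger change in seed coat, by 3.53 on the log2 scale against endosperm and by 4.56 against embryo. MtrunA17_Chr6g0461021 had a more negative change in seed coat, by -0.58 against endosperm and by -1.30 against embryo. These sizes are with TMM and depend on the scaling between tissues. These transcripts were chosen in part by their change in seed coat, which favours a larger change there.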

How the results depend on the processing

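With 2 samples per group the counts of calls moved with single libraries, while all 4 transcripts named kept their direction and call at 17 days under each of 19 alternatives, which were not run for their calls in the second comparison or between tissues. The threshold of 0.05 and the fold minimum reuse the main fit. The rule that named these transcripts already met both, so they could not change the outcome. At 17 days 10386 transcripts were called, 5566 and 5369 without replicate 1 and 2 of heat stress S2 (range 5369 to 10808 with each library left out), 6280 with an absolute log2 change of at least 1, 14489 at an adjusted p below 0.05, 7020 on the 4 libraries alone and 10327 with DESeq2. All 9607 calls shared with DESeq2 had the same direction. In the second seed coat comparison, 3362 calls became 6634 at 0.05 and 2044 with the fold minimum. Without each library they ranged between 1125 (without replicate 1 of 20 °C S2) and 5313 (without replicate 1 of standard S1), and leaving out any of the 8 libraries moved them by over 1.5 times. The transcripts with the same direction became 3985 at 0.05 and 1175 with the fold minimum (703 to 2995 with a library left out), and those with opposite directions 982 and 201 (163 to 727). The share on mitochondrial transcripts differed by -0.00242 percentage points between heat stress S2 and standard S1, by -0.00718 by TPM, and by -0.00537 to 0.000537 with a library left out, reversing without replicate 1 of standard S1. That on the embryo list differed by -1.05 points (-1.37 to -0.719 with a library left out), and that on the endosperm list by -0.146 points (-0.820 by TPM, -0.205 to -0.0873 with a library left out, the smallest without replicate 1 of standard S1). With TMM within each tissue, chosen after seeing the data, 9468 and 8857 transcripts differed from endosperm and embryo. The cause of these movements was not tested.

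The replicate numbers of the groups only share a label. The deviations of same-numbered samples correlated at -0.03 between the groups of 17 days, across transcripts, and at -0.26 to 0.23 over all pairs of groups. With a replicate block 9112 transcripts were called at 17 days, 2572 in the second comparison, 1601 with the same direction and 318 with opposite directions, and 8561 and 8196 differed from endosperm and embryo.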
